A study of Homo sapiens with 6 samples.

Results

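The 59 genes described here encode core proteins of the spliceosome, the machine that removes introns from pre-mRNA. Members were matched by GENCODE Release 44 symbol to the 62700 genes of the deposited tables, and all 59 were found. They cover the Sm ring (8 genes), the LSm ring (8), the specific proteins of U1 (3), U2 (11) and U11/U12 (3), the factors that recognise the 3′ splice site (3), the U4/U6.U5 tri-snRNP (12), the Prp19 complex (NTC) and B complex (6), and DExH/D-box helicases (5). RNA–Seq covered 6 libraries of SK-Hep1 cells, a line from a liver tumour, with 3 libraries titled shControl and 3 titled shRAB30-DT. The control libraries carry the genotype label WT, and the other libraries the label RAB30-DT knockdown. According to the study's methods, knockdown lines were made by lentiviral transduction and kept under puromycin selection, so each group is a stable line, and no source used here states that replicates were separate cultures. Since titles and genotype labels of the controls differ, an effect of vector or selection cannot be told apart from that of the knockdown. The methods name knockdown vectors RAB30-DT–sh1 and RAB30-DT–sh2, and the knockdown columns are named sh1, sh2 and sh3. These columns were taken as replicates of 1 knockdown from the titles. The p-values therefore measure the spread between these libraries, which may be technical.

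In a small nuclear ribonucleoprotein (snRNP), a ring of Sm proteins, or of LSm proteins for U6, holds a small nuclear RNA, to which proteins particular to that snRNP bind. U1 pairs with the 5′ splice site and U2 with the branch point, after which the tri-snRNP joins and helicases rearrange the RNAs so that the reaction can proceed. These genes are expressed in nearly all cells. The study knocked down *RAB30-DT*, a divergent-transcript long noncoding RNA, to ask which genes and splicing events depend on it, and the core spliceosome is the machinery on which such events run.

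Levels are given in TPM, a length-corrected share of all transcripts in a library. As TPM are shares, less RNA of the members per cell and more RNA of other genes cannot be told apart. Read numbers cannot be recovered from TPM, so depth is unknown and the error comes from the 3 libraries of a group. Between 20127 and 21675 genes were above 0 TPM in a library. *RAB30-DT* was at 18.16, 11.51 and 13.91 TPM in control replicates 1, 2 and 3 and at 11.94, 10.85 and 6.5 TPM in knockdown replicates 1, 2 and 3. In these libraries the targeted gene thus overlapped between the groups. For this line the study also reports a qPCR check of the knockdown, whose values are not given here. Of 10 hepatocyte markers, 9 were below 1 TPM in every library, and the list summed to 18.12 to 24.25 TPM in control and 28.25 to 37.19 TPM in knockdown libraries, nearly all of it *SERPINA1*. Of 8 endothelial markers, 7 were below 1 TPM in every library, and 5 of 5 immune and epithelial markers were too. By contrast, 8 mesenchymal markers summed to 5366.61 to 5531.92 TPM in control and 5659.99 to 6110.92 TPM in knockdown libraries. Nearly all of that sum was *VIM* and *SPARC*, and 6 of the 8 reached 1 TPM in every library. The part of these lists in the results below was not tested. Replicate 1 of each group stood apart from the other libraries in its relation to GC content. Over the 14020 tested genes, Spearman's rho between GC content and a library's deviation from the gene's mean was −0.607 and −0.523 in control and knockdown replicate 1, and between 0.022 and 0.489 in the other 4 libraries.

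All 59 members were expressed, with control means from 14.9 TPM for *LSM8* to 1116 TPM for *SNRPD2*. Differences were tested on log2(TPM + 1) with limma over 14020 genes whose mean reached 1 TPM, and a called gene is one with an adjusted p (Benjamini–Hochberg) under 0.05. Of the 59 members, 53 had a log2 fold change below 0 (51 with median-of-ratios scaling and 42 with quantile normalization). That is 89.8% of members, beside 53.7% of all tested genes. The median log2 fold change was −0.30 over the members and −0.04 over all tested genes. Members and other genes were not matched by level. With a filter at a mean of 5 TPM the median over tested genes was −0.06, and quantile normalization moved that of the members to −0.15. In 23 members (39.0%) all knockdown libraries were below all control libraries, beside 13.4% of all tested genes, and in 0 members were they above, beside 9.89% of all tested genes. Few single members passed the test. At an adjusted p under 0.05 only 1 member was called, *DDX23*, which was lower, beside 0.67% of all tested genes called lower and 0.371% called higher. Without control replicate 1 the count called was 6 (*DDX23*, *LSM6*, *SF3B3*, *SNRNP70*, *SNRPA* and *U2AF2*), where 3.49% of all tested genes were called, and with limma's arrayWeights it was 19, where 23% were, and all of these members were lower. At an unadjusted p under 0.05 there were 16 members (27.1%), all of them below 0, beside 16.8% of all tested genes in either direction. Members were chosen with earlier results of these libraries known, so these shares are a description of the list.

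The median member was lower in each knockdown library than in each control library. Set against the mean of the control libraries, the median member was at 0.0079, −0.043 and 0.036 on the log2 scale in control replicates 1, 2 and 3, and at −0.26, −0.25 and −0.30 in knockdown replicates 1, 2 and 3. The 59 members summed to 8339.18, 8556.15 and 9500.91 TPM in control and to 6670.51, 6933.05 and 7005.98 TPM in knockdown libraries. The sums did not overlap, with means of 8799 ± 618 and 6870 ± 176 TPM (SD, n = 3 each), a difference of −21.9%.

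**Figure D1:**
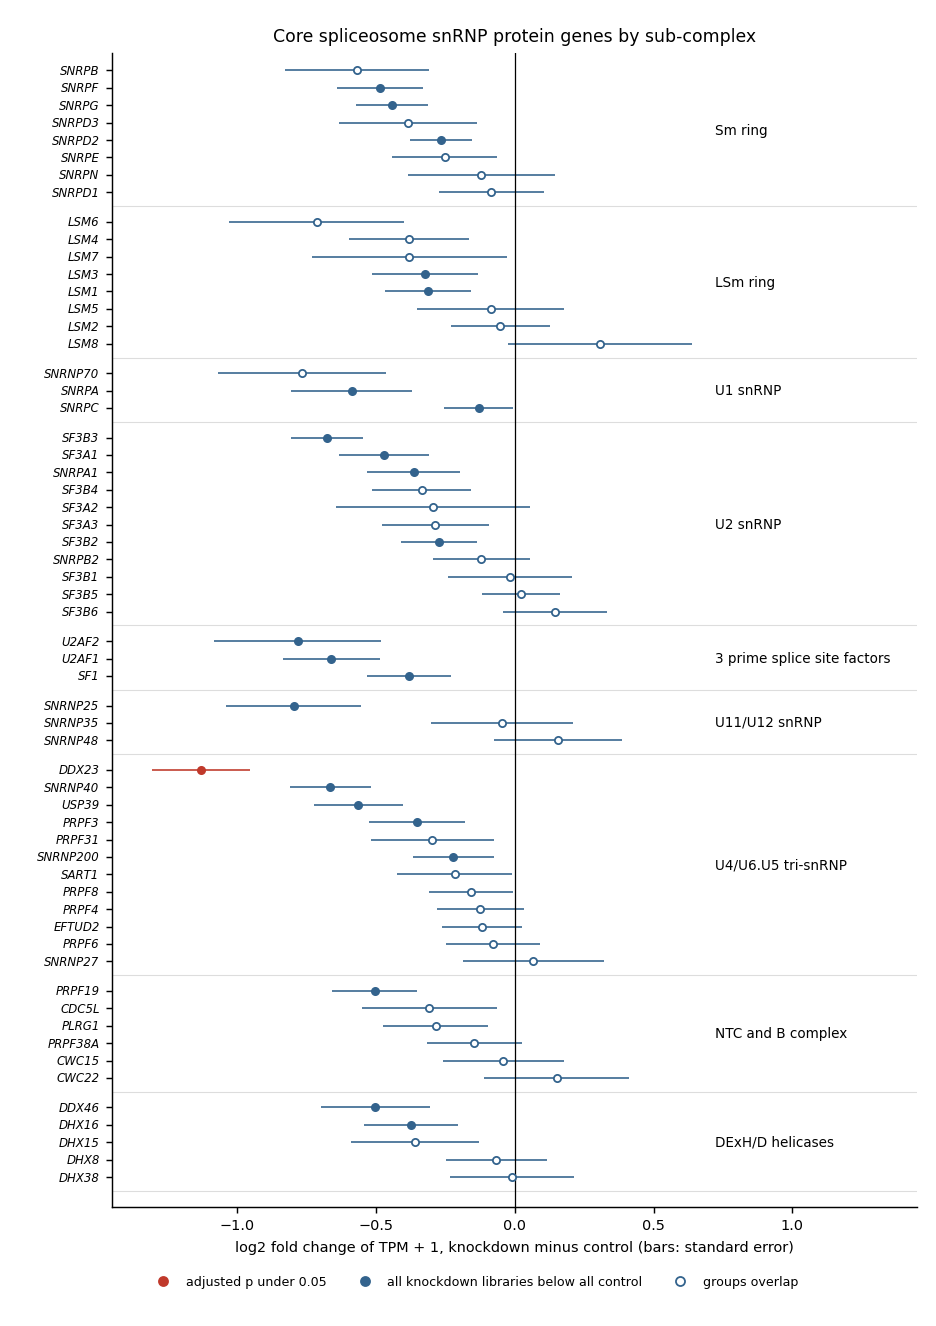
Log2 fold change of TPM + 1 (knockdown minus control, horizontal axis) of each of the 59 members, grouped by sub-complex, with the standard error as bars. Points lie left of 0 for 53 members, *DDX23* (red) is the only called gene at −1.13, and filled points mark members whose knockdown libraries were all below the control libraries.

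*DDX23* encodes the DEAD-box helicase of the U5 snRNP, the human counterpart of yeast Prp28, which frees the 5′ splice site from U1 so that U6 can take its place. It was at 78.37, 75.49 and 97.75 TPM in control replicates 1, 2 and 3, and at 34.21, 36.16 and 42.71 TPM in knockdown replicates 1, 2 and 3. The highest knockdown library was well under the lowest control library. Its level fell by 55.1%, from 83.9 ± 12.1 to 37.7 ± 4.45 TPM (SD, n = 3 each), with a log2 fold change of −1.13 (standard error 0.18, adjusted p = 0.0344 from limma). Permuting its TPM over the libraries (exact, two-sided) gave p = 0.1, which is the lower limit with 3 libraries in each group. The call held without control replicates 1 or 3. It was lost without control replicate 2 (adjusted p = 0.141 from limma) and without knockdown replicate 1, 2 or 3 (adjusted p = 0.137, 0.18 and 0.131), while the log2 fold change stayed between −1.22 and −1.02 with each library left out in turn. Few genes of any kind were called where the call was lost. The shares of all tested genes were 0.0856% without control replicate 2 and 0.129, 0.108 and 0.114% without knockdown replicates 1, 2 and 3. In the main fit the share was 1.04%. *DDX23* (ENSG00000174243.11) lies on the minus strand of chromosome 12, at chr12:48829756-48852842 on hg38.

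The 3′UTR of *DDX23* holds the 7 bases GAGTGAA, a sequence that an earlier scan of 3′UTRs in these same libraries had picked out, so its relation to the fold changes here is not independent of that choice. It was searched for on the transcript strand in the 3′UTR of the canonical transcript. Among the 59 members, 7 (11.9%) hold it, beside 12.4% of the tested protein-coding genes. The sites of *DDX23* and 5 other members are shown with 10 bases on each side, 5′ to 3′ on the transcript strand, because they let the neighbourhood of the called gene's site be compared with that of genes that were not called. The capitals mark the 7 bases.
DDX23: ctttgtcactGAGTGAAatctctgttt
SF3A1: ggtggattgtGAGTGAAtgggcccttt
SART1: gtgtctagagGAGTGAAactcccaggg
CDC5L: atcctaggtgGAGTGAAtagcaaacat
PRPF38A: aggagagagtGAGTGAAagaagccaag
SNRPB2: cttatactctGAGTGAAatgggggact

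The *DDX23* stretch lies at chr12:48829820-48829846 on the minus strand, with the 7 bases starting at base 633 of a 3′UTR of 713 bases. The other stretches lie at chr22:30332787-30332813 (minus, *SF3A1*), chr11:65979488-65979514 (plus, *SART1*), chr6:44448171-44448197 (plus, *CDC5L*), chr1:52417852-52417878 (plus, *PRPF38A*) and chr20:16742469-16742495 (plus, *SNRPB2*), each within 1 exon. *LSM1* is the other member with a site. All 7 members with the sequence had a log2 fold change below 0, with a median of −0.31, and so did 46 of the 52 members without it, with a median of −0.29. The medians of the members with and without the sequence were therefore close to each other, and no test was made. Over all tested protein-coding genes the medians were −0.14 with and −0.05 without the sequence, where genes with it had a median 3′UTR of 3326.5 bases and genes without it 1117 bases.

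The tri-snRNP, to which *DDX23* belongs, brings U4, U6 and U5 into the assembling spliceosome. Of its 12 genes, 11 had a log2 fold change below 0, and the median was −0.22. In 5 of them all knockdown libraries were below all control libraries, beside 13.4% of all tested genes. *SNRNP40*, a WD-repeat protein of U5 that is named here after its values were seen, was at 91.98, 90.19 and 101.2 TPM in control and at 58.92, 61.15 and 57.42 TPM in knockdown libraries. The groups lay far apart relative to their spread, with a log2 fold change of −0.66 (standard error 0.14) that missed the threshold (adjusted p = 0.0802 from limma). *USP39*, needed for recruitment of the tri-snRNP and also named after its values were seen, was at 76.7, 71.22 and 90.26 TPM in control and at 52.28, 52.19 and 55.02 TPM in knockdown libraries (log2 fold change −0.56, adjusted p = 0.138 from limma). *PRPF8* (chr17:1650629-1684867, minus strand), the largest U5 protein, which encloses the catalytic centre, was at 119.26, 102.58 and 99.95 TPM in control and at 92.53, 103.56 and 91.44 TPM in knockdown libraries. Its groups overlapped (log2 fold change −0.16, standard error 0.15, adjusted p = 0.629 from limma). *SNRNP27*, a small tri-snRNP protein, was the single member of this sub-complex above 0, at 0.07 (standard error 0.26). It was at 47.69, 32.59 and 28.07 TPM in control and at 48.47, 32.13 and 32.32 TPM in knockdown libraries, and 12.5% of its exon bases are shared with *MXD1* on the same strand. The other 7 genes had log2 fold changes between −0.35 and −0.08, of which those of *PRPF3* and *SNRNP200*, named after their values were seen, had no overlap between the groups.

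**Figure D2:**
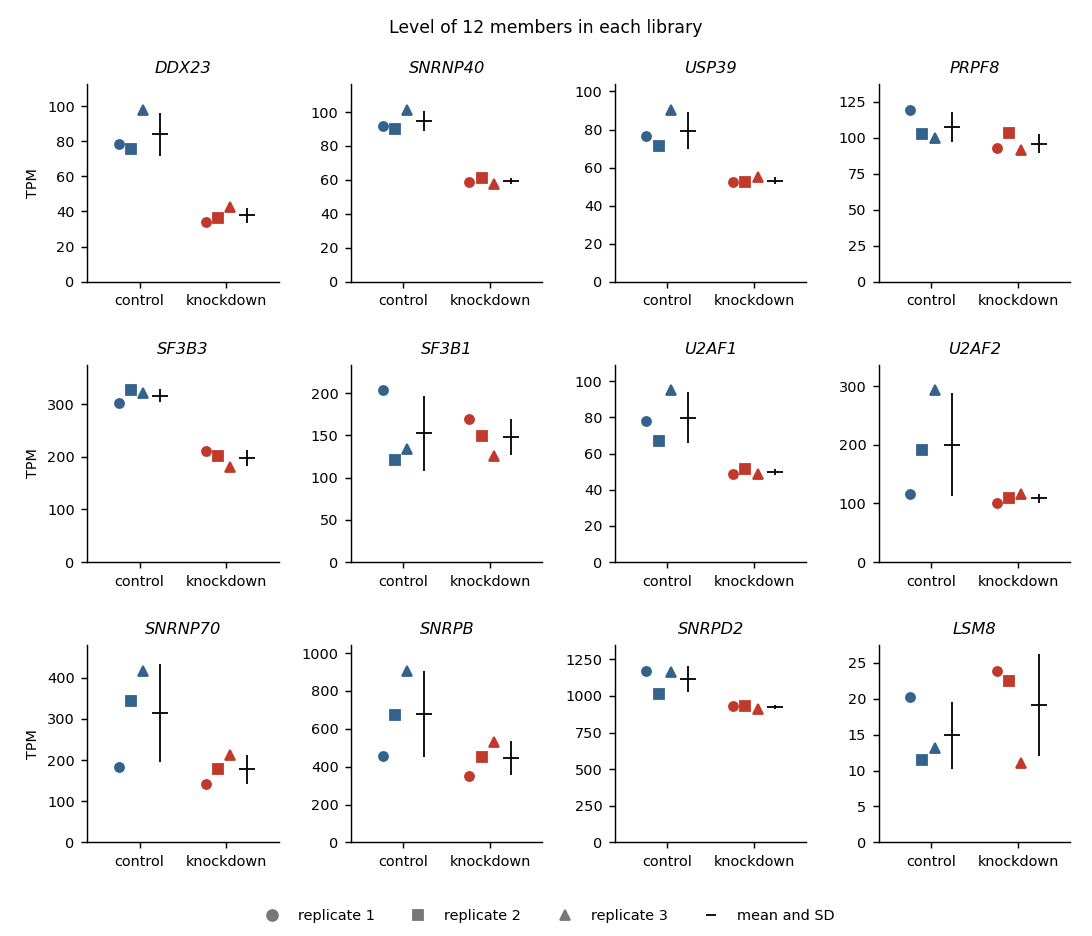
TPM (vertical axis, from 0) of 12 members in the 3 control (blue) and 3 knockdown (red) libraries, with mean and SD beside the points and the replicate number shown by the symbol. The groups are apart for *DDX23*, *SNRNP40*, *USP39*, *SF3B3*, *U2AF1* and *SNRPD2*. In *U2AF2* they nearly touch, with control replicate 1 at 116.8 and knockdown replicate 3 at 116.55 TPM. They overlap for the other 5 members, among them *SNRNP70* and *SNRPB*, whose replicate 1 is the lowest library of each group.

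The Sm ring is common to the U1, U2, U4 and U5 snRNPs and their U11/U12 counterparts, and its genes ranged in control mean from 23.0 TPM for *SNRPN* to 1116 TPM for *SNRPD2*. All 8 had a log2 fold change below 0 as deposited, although that of *SNRPD1* was above 0 with quantile normalization (0.047) and arrayWeights (0.057), and that of *SNRPE* with arrayWeights (0.044). The median of the ring was −0.32. *SNRPD2*, the most abundant member, was at 1172.68, 1012.59 and 1162.16 TPM in control and at 933.49, 934.26 and 911.61 TPM in knockdown libraries. In *SNRPF* and *SNRPG* the knockdown libraries were likewise all below the control libraries, with log2 fold changes of −0.49 (standard error 0.15) and −0.44 (standard error 0.13). None of these 3, which are named after their values were seen, was called (adjusted p = 0.285, 0.172 and 0.152 from limma). *SNRPB* (chr20:2461634-2470853, minus strand), which encodes SmB and SmB′, was at 454.92, 673.66 and 907.13 TPM in control and at 352.92, 453.85 and 530.95 TPM in knockdown libraries. Here the groups overlapped, since control replicate 1 was lower than knockdown replicate 3 and close to knockdown replicate 2 (log2 fold change −0.57, standard error 0.26, adjusted p = 0.319 from limma). It was −0.83 without control replicate 1 and −0.33 without control replicate 3. *SNRPN* (chr15:24823637-24978723, plus strand), the close homologue of *SNRPB* from the imprinted Prader–Willi region, was at 22.63, 31.25 and 14.97 TPM in control and at 18.19, 21.54 and 20.87 TPM in knockdown libraries. All knockdown values of *SNRPN* fell inside the control range (log2 fold change −0.12, standard error 0.26). Reads of *SNRPB* and *SNRPN* may be shared where their sequences are alike, and 23.9% of the exon bases of *SNRPN* are shared with *SNURF*, so the level of *SNRPN* is uncertain. *SNRPD1*, with the highest log2 fold change of the ring, was at 80.85, 55.96 and 57.55 TPM in control and at 63.66, 60.68 and 56.46 TPM in knockdown libraries (log2 fold change −0.08, standard error 0.19).

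The LSm ring binds U6, and with LSM1 in place of LSM8 it acts in the cytoplasm in mRNA decay. Of its 8 genes, 7 had a log2 fold change below 0, and the median was −0.32. In 2 of them all knockdown libraries were below all control libraries, beside 13.4% of all tested genes. *LSM6* had the lowest log2 fold change of the ring, and was at 38.98, 74.35 and 85.21 TPM in control and at 30.07, 36.19 and 49.88 TPM in knockdown libraries. Control replicate 1 of *LSM6* lay among the knockdown libraries, and the log2 fold change of −0.71 had a standard error of 0.32 (adjusted p = 0.306 from limma). *LSM8*, the subunit that marks the nuclear ring, had the highest log2 fold change of all 59 members. It was at 20.22, 11.42 and 13.09 TPM in control and at 23.88, 22.5 and 11 TPM in knockdown libraries. Its groups overlapped widely, with knockdown replicate 3 the lowest of the 6 libraries (log2 fold change 0.31, standard error 0.33, adjusted p = 0.678 from limma).

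U1 recognises the 5′ splice site, and all 3 of its specific proteins had log2 fold changes below 0 as deposited, with a median of −0.59 (*SNRPC* was at 0.061 with quantile normalization). *SNRNP70*, which anchors the U1 RNA, was at 183.48, 344.33 and 416.74 TPM in control and at 140.73, 179.35 and 210.94 TPM in knockdown libraries. Control replicate 1 was again inside the knockdown range, and the other 2 control libraries were above it (log2 fold change −0.77, standard error 0.30, adjusted p = 0.255 from limma). *SNRPC*, which steadies the pairing of U1 with the splice site, was at 245.26, 240.41 and 246.11 TPM in control and at 216.05, 220.64 and 231.84 TPM in knockdown libraries. The difference in *SNRPC* was small and the groups did not overlap (log2 fold change −0.13, standard error 0.12, adjusted p = 0.629 from limma).

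As deposited, the 3′ splice site factors had the lowest median of the 9 sub-complexes, −0.66. In 3 of 3 genes the knockdown libraries were all below the control libraries, beside 13.4% of all tested genes. U2AF1 reads the AG at the end of the intron, U2AF2 binds the polypyrimidine tract and SF1 the branch point before U2 arrives. *U2AF2* was at 116.8, 191.51 and 293.24 TPM in control and at 100.07, 109.33 and 116.55 TPM in knockdown libraries. The control libraries of *U2AF2* spanned a wide range, and control replicate 1 was just above knockdown replicate 3 (log2 fold change −0.78, standard error 0.30, adjusted p = 0.245 from limma). Without control replicate 1 the log2 fold change of *U2AF2* was −1.12 and called (adjusted p = 0.0312 from limma), and without control replicate 3 it was −0.46. *U2AF1* (chr21:43092956-43107570, minus strand) was at 77.8, 66.99 and 94.98 TPM in control and at 48.73, 51.63 and 48.65 TPM in knockdown libraries. Its knockdown libraries lay close together and clear of the control libraries (log2 fold change −0.66, standard error 0.18, adjusted p = 0.121 from limma), although reads of a near-identical copy, *U2AF1L5*, may be counted for it or lost to it. *SF1* was at 205.75, 223.23 and 179.58 TPM in control and at 145.24, 170.97 and 149.72 TPM in knockdown libraries (log2 fold change −0.38, standard error 0.15, adjusted p = 0.255 from limma). Without control replicate 3 the median of these 3 genes was −0.47. The U1 median was lower than theirs with arrayWeights (−0.64 against −0.46) and without control replicate 1 (−0.81 against −0.67).

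The U2 proteins hold the branch point, with SF3B1 and SF3B3 forming the scaffold of the SF3b complex. Of 11 genes, 9 had a log2 fold change below 0, and the median was −0.29. In 4 of them all knockdown libraries were below all control libraries, beside 13.4% of all tested genes. *SF3B3* (chr16:70523791-70577670, plus strand) was at 302.67, 326.74 and 321.12 TPM in control and at 210.48, 202.55 and 181.29 TPM in knockdown libraries. The spread within each group was small beside the difference, which missed the threshold (log2 fold change −0.68, standard error 0.13, adjusted p = 0.0602 from limma). *SF3B1* (chr2:197388515-197435079, minus strand), its partner in the same complex, was at 203.18, 120.73 and 133.48 TPM in control and at 168.79, 148.94 and 125.54 TPM in knockdown libraries. In both groups replicate 1 was the highest library, the groups overlapped, and the log2 fold change was −0.018 (standard error 0.22), with a sign that turned under median-of-ratios scaling (0.020) and quantile normalization (0.14). *SF3B6*, the small subunit that contacts the branch point, had the highest log2 fold change of the U2 genes (0.14, standard error 0.19). It was at 429.23, 322.24 and 269.52 TPM in control and at 408.55, 365.57 and 337.26 TPM in knockdown libraries.

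U11 and U12 serve the minor spliceosome, which removes a small class of introns, and the 3 genes here encode proteins that it does not share with U1 and U2. Their fold changes differed in sign. *SNRNP25* was at 38.67, 46.26 and 65.44 TPM in control and at 22.01, 29.64 and 32.7 TPM in knockdown libraries, with no overlap (log2 fold change −0.80, standard error 0.24, adjusted p = 0.16 from limma). *SNRNP48* was at 23.62, 18.49 and 13.96 TPM in control and at 23.96, 20.16 and 17.8 TPM in knockdown libraries, with wide overlap (log2 fold change 0.16, standard error 0.23). *SNRNP35* had −0.05 (standard error 0.26), and 44% of its exon bases are shared with *RILPL1* on the opposite strand. Whether the library kit kept the strand is not stated in the sources used here, so the reads of such pairs cannot be told apart.

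The Prp19 complex joins when the spliceosome is activated, and PRPF19 is its ubiquitin ligase. Of the 6 genes of this group, 5 had a log2 fold change below 0, and the median was −0.22. *PRPF19* was at 166.92, 183.83 and 222.25 TPM in control and at 133.47, 133.14 and 133.59 TPM in knockdown libraries. Its knockdown libraries were nearly equal and all below the control libraries (log2 fold change −0.50, standard error 0.15, adjusted p = 0.158 from limma). *CWC22*, which brings the exon junction complex to the spliceosome, was at 25.93, 19.67 and 13.51 TPM in control and at 24.69, 22.25 and 17.51 TPM in knockdown libraries, and its groups overlapped (log2 fold change 0.15, standard error 0.26). The separate helicases had a median of −0.36. *DDX46*, the human Prp5, which acts when U2 binds the branch point, was at 94.67, 73.27 and 74.22 TPM in control and at 66.7, 58.31 and 45.82 TPM in knockdown libraries, without overlap (log2 fold change −0.50, standard error 0.20, adjusted p = 0.254 from limma). *DHX38*, the human Prp16, which acts between the steps of splicing, was at 25.11, 33.27 and 44.79 TPM in control and at 33.02, 33.21 and 33.5 TPM in knockdown libraries. All knockdown values of *DHX38* lay inside the control range (log2 fold change −0.010, standard error 0.22), and its sign turned under median-of-ratios scaling (0.026) and quantile normalization (0.087).

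**Figure D3:**
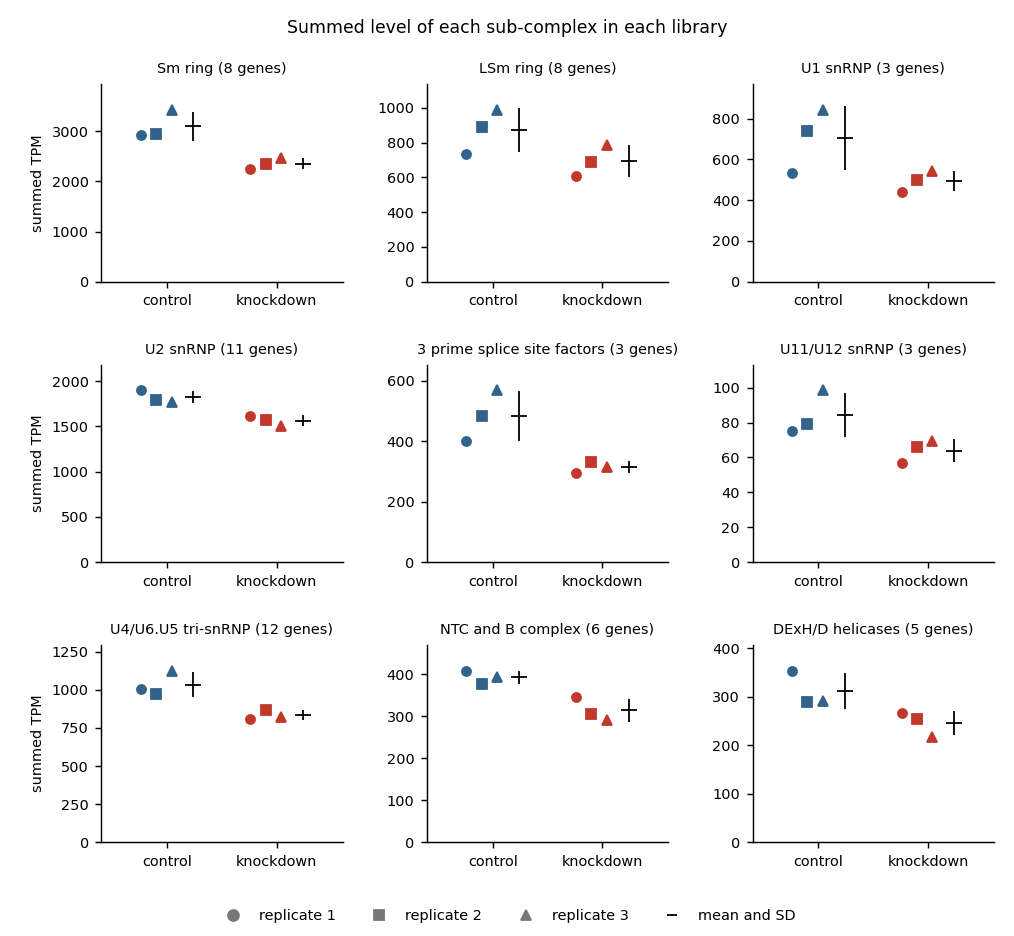
Summed TPM of the genes of each sub-complex (vertical axes, from 0) in the 3 control (blue) and 3 knockdown (red) libraries, with mean and SD beside the points. In 7 of 9 sub-complexes the groups do not overlap. In the LSm ring and U1, control replicate 1 lies within the knockdown range.

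Summed over each sub-complex, the difference of the means ran from −14.3% for U2 to −35.1% for the 3′ splice site factors. The sum of the Sm ring was 3097 ± 283 TPM in control and 2351 ± 112 TPM in knockdown libraries (SD, n = 3 each), a difference of −24.1%. The sums of the tri-snRNP were 1034 ± 80.2 and 833 ± 32.6 TPM (SD, n = 3 each), a difference of −19.4%. The groups did not overlap in 7 of the 9 sums, and they overlapped in the LSm ring (−20.3%) and U1 (−29.8%). Sums weight the abundant genes, whereas medians weight each gene alike, and the U11/U12 genes show the difference, where the sums differed by −24.2% and the median log2 fold change was −0.05. The number of genes below 0 was, under quantile normalization, 7 of 8 in the Sm ring, 5 of 8 in the LSm ring, 2 of 3 in U1, 7 of 11 in U2, 9 of 12 in the tri-snRNP, 4 of 6 in the Prp19 and B complex group and 3 of 5 helicases, and under median-of-ratios scaling 8 of 11 in U2 and 4 of 5 helicases. Quantile normalization moved the sub-complex medians to −0.077 for the tri-snRNP, −0.17 for the Sm ring, −0.18 for the LSm ring, −0.15 for U2, −0.23 for the helicases, −0.10 for the Prp19 and B complex genes and −0.021 for U11/U12, with none above 0. Without control replicate 1 the medians were −0.17 for the Sm ring, −0.21 for the helicases and −0.079 for the Prp19 and B complex genes.

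GC content moved with the differences between libraries of 1 group. Over the 59 members, whose canonical transcripts held 34.3 to 66.5% GC, Spearman's rho between GC content and the log2 difference of replicate 3 minus replicate 1 was 0.766 in control and 0.756 in knockdown libraries. These points share libraries and are given as a description. Between the groups the relation was weaker, with a rho of −0.341 for the log2 fold change. The 29 GC-poorer members had a median log2 fold change of −0.29, with 24 below 0, and the 30 GC-richer members a median of −0.32, with 29 below 0, so both sets of members were shifted.

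With each library's trend with GC content removed, 52 members had a log2 fold change below 0 and the median was −0.28. Under this setting 10 members were called, all lower, beside 4.89% of all tested genes called lower and 3.97% called higher. These were *DDX23* (adjusted p = 0.00974), *SF3B3* (0.0164), *SNRNP40* (0.0256), *U2AF1* (0.0388), *SNRNP25* (0.0413), *SNRNP70* (0.0422), *USP39* (0.0427), *PRPF19* (0.0441), *SNRPA* (0.0475) and *DDX46* (0.0476), all from limma. They come from 7 of the 9 sub-complexes, and none is an Sm or LSm gene under this setting, whereas arrayWeights also called *SNRPB*, *SNRPF*, *SNRPG*, *LSM1* and *LSM6*. These calls rested on single libraries too, since leaving out control replicates 1, 2 and 3 gave 7, 2 and 11 called members, and leaving out knockdown replicates 1, 2 and 3 gave 0, 0 and 1. The share of all tested genes called moved too, to 7.92, 2.34 and 12% without control replicates 1, 2 and 3 and to 0.767, 0.86 and 0.841% without knockdown replicates 1, 2 and 3. The setting was planned, and the counts with a library left out were added after the data were seen.

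**Figure D4:**
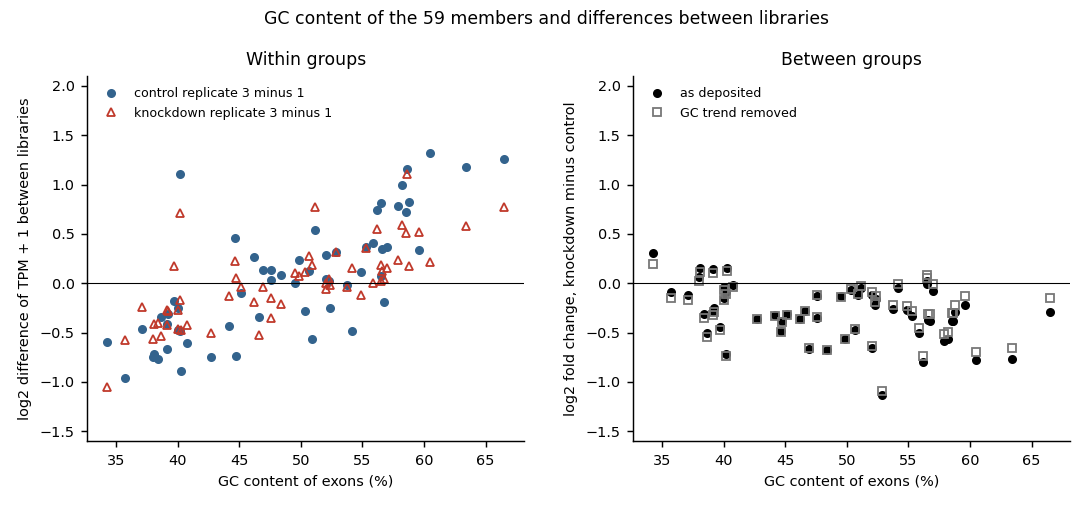
Left, log2 difference of TPM + 1 between replicates 3 and 1 of control (blue circles) and knockdown (red triangles) against GC content in percent, for the 59 members. GC content was taken over the exons of the canonical transcript. Right, log2 fold change of knockdown minus control against the same GC content, as deposited (black) and with each library's GC trend removed (grey squares). Within groups the points climb with GC content (rho 0.766 and 0.756), and between groups most points lie below 0 across the range.

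Beyond the members, 59 other snRNP and spliceosome proteins were tested, of which 44 had a log2 fold change below 0, with a median of −0.22. In 12 of them (20.3%) the knockdown libraries were all below the control libraries, beside 13.4% of all tested genes. They were all above in 3 genes (5.08%), beside 9.89% of all tested genes. None was called by limma, with 11 (18.6%) at an unadjusted p under 0.05, close to the 16.8% of all tested genes. With the GC trend removed 5 of the 59 were called, all lower, beside 4.89% of all tested genes called lower and 3.97% called higher. The 3 genes that were above in every library, named after their values were seen, were *SYF2* and *PPIL1*, of the Prp19 complex and its surroundings, and *RNF113A*, which acts in the activated spliceosome. *SYF2* was at 49.5, 42.55 and 38.78 TPM in control and at 66.86, 59.24 and 60.77 TPM in knockdown libraries (log2 fold change 0.51, adjusted p = 0.181 from limma). Of 20 genes for snRNP assembly and import, 15 had a log2 fold change below 0, and the median was −0.18. In 7 of them (35%) the groups did not overlap, all lower, beside the same 13.4% of all tested genes. Here too none was called by limma, with 8 (40%) at an unadjusted p under 0.05, beside the same 16.8%. With the GC trend removed 4 of the 20 were called, all lower, beside the same 4.89% called lower and 3.97% called higher. Among these 4, which were chosen after their values were seen, *WDR77* and *CLNS1A* encode partners of PRMT5, which methylates Sm proteins before they are placed on the RNA. *WDR77* was at 69.48, 73.06 and 75.3 TPM in control and at 50.05, 45.77 and 46.02 TPM in knockdown libraries. *CLNS1A* was at 197.79, 172.69 and 184.59 TPM in control and at 132.16, 123.46 and 103.06 TPM in knockdown libraries. In both genes the groups lay apart, at adjusted p of 0.0993 and 0.101 from limma as deposited.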

How the data were processed

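Poly-T-selected RNA of 3 control and 3 knockdown libraries was sequenced. The values deposited by the authors are TPM per gene, given to 2 decimals. The methods of the study name fastp, STAR and RSEM, whereas the submitters' processing notes name fastp, HISAT2 (2.0.5) and hg38, so the aligner is uncertain. All 62700 identifiers were those of GENCODE Release 44, used here for names, hg38 positions, GC content and 3′UTRs. Log2(TPM + 1) of 14020 genes whose mean reached 1 TPM was fitted in R 4.3.3 with limma 3.58.1 (lmFit, eBayes with trend, 2-sided, no block), with Benjamini–Hochberg adjustment over these genes. No filter removed a member. GC trends were removed by loess (span 0.3) of each library's deviation from the gene's mean. The fit was also run on simulated data with independent noise and with any added GC trend alike in both groups. As these libraries can differ from that, the run is not used as support for any call. Members and lists were chosen with earlier results of these data known. Every library is given for called members, the lowest and highest fold change of each sub-complex, *SNRPB*, *SNRPN*, *SF3B1*, *U2AF1* and *PRPF8*, and genes outside this rule are marked as such. The 17 other settings fixed in advance changed the pseudocount, filter, scaling, eBayes, library weights, block, GC trend or libraries, and 6 more were added later. Alternative splicing was not analysed here.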

Additional observations from a re-analysis of the deposited data

How the results depend on the processing

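The 14 main values, *DDX23* among them, and 21 further fold changes were computed again under 17 alternatives. Of these further fold changes, 310 kept their sign and their side of the threshold, 27 of the same sign passed it and 20 turned their sign, counted over all alternatives. For the main values, 188 stayed the same by the margins set for them, 37 moved beyond these and 8, all of *DDX23*, missed the threshold. That tally takes in the 6 settings added later. The count of members called (1, *DDX23*) was 0 without a filter on low values and with median-of-ratios scaling (*DDX23* at −1.13, adjusted p = 0.0917, and −1.09, adjusted p = 0.0599, from limma), 19 with arrayWeights, which called 23% of all tested genes, and 10 with the GC trend removed. Of all tested genes, 0.0475% were called without the filter, 0.97% with median-of-ratios scaling and 8.86% with the GC trend removed. The main fit called 1.04%. With each library left out the count of members called ran from 0 to 6, where 0.0856 to 3.49% of all tested genes were called. With the GC trend removed as well it was 7, 2 and 11 without control replicates 1, 2 and 3 and 0, 0 and 1 without knockdown replicates 1, 2 and 3, where 7.92, 2.34, 12, 0.767, 0.86 and 0.841% of all tested genes were called. There *DDX23* lay between −1.19 and −0.99 and missed the threshold without knockdown replicates 1 (−1.05, adjusted p = 0.0578 from limma) and 2 (−1.04, adjusted p = 0.0623 from limma). With each library left out as deposited, *DDX23* lay between −1.22 and −1.02. The count called higher was 0 in every setting, and the count below 0 stayed between 42 and 55.

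The median over all members was −0.26 with median-of-ratios scaling, −0.15 with quantile normalization, −0.23 with arrayWeights and −0.33 to −0.22 with each library left out. Quantile normalization gave −0.52 for the 3′ splice site factors, −0.23 for the helicases, −0.18 for the LSm ring, −0.17 for the Sm ring, −0.15 for U2 and −0.077 for the tri-snRNP. arrayWeights gave −0.46 for the 3′ splice site factors, −0.21 for U2 and −0.12 for the tri-snRNP, and 0.077 for U11/U12. Removal of the GC trend gave −0.23 for U2, with or without the block. With each library left out, the medians were −0.77 to −0.47 for the 3′ splice site factors, −0.39 to −0.21 for the helicases, −0.41 to −0.17 for the Sm ring and −0.21 to 0.048 for U11/U12.

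The sign of *DHX38* turned with median-of-ratios scaling (0.026), quantile normalization (0.087) and removal of the GC trend (0.053, with or without the block). That of *SF3B1* turned with median-of-ratios scaling (0.020), quantile normalization (0.14) and arrayWeights (0.21). Quantile normalization turned *SNRPC* (0.061) and *SNRPD1* (0.047), and arrayWeights turned *SNRPD1* (0.057). With each library left out, the range took in both signs for *CWC22* (−0.083 to 0.36), *DHX38* (−0.21 to 0.20), *SF3B1* (−0.17 to 0.21), *SF3B6* (−0.010 to 0.32), *SNRNP27* (−0.12 to 0.28), *SNRNP48* (−0.027 to 0.33), *SNRPD1* (−0.18 to 0.084) and *SNRPN* (−0.38 to 0.12). None of these was called in any setting, and why they turned was not tested.

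Replicate numbers occur in both groups. Deviations of same-numbered libraries correlated at 0.41, 0.0359 and 0.279 over all tested genes for replicates 1, 2 and 3. Over the 59 members the correlations were 0.798, −0.0197 and 0.678. Shared numbers were not read as pairs in the main fit, and whether they are pairs was not tested. With a replicate block, 8 members and 6.14% of all tested genes were called, and 9 members, *SNRPB* and *SNRPG* among them, and 7.66% with the block and the GC trend removed. Depth is unknown for TPM, so precision rests on 3 libraries per group.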
